A study of Mus musculus with 6 samples.

Results

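The genes described are 10 enzymes that make, clear or consume nicotinamide adenine dinucleotide (NAD): Nmrk1, Nmrk2, Nampt, Nmnat1, Nmnat3, Nnmt, Sirt1, Sirt3, Sirt5 and Parp1. They were chosen by name and role from a comparison of these same arrays whose values were already known, so the differences of these genes between the groups are given as descriptions, with no p-value of their own. All 10 of 10 had a probe on the array and passed the filter on dim probes, out of 25003 genes and transcripts tested. They are measured by 15 probes, of which 14 were well above background on 3 or more arrays.

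The arrays measured RNA of the quadriceps of 6 male mice at 9 weeks of age, 3 in the exercise group and 3 in the sedentary group, with 1 array for each mouse. All 6 mice were transgenic AR97Q mice on a C57BL/6J background, which model SBMA, an inherited disease of motor neurons and muscle (spinal and bulbar muscular atrophy), and no array of a mouse without the transgene was analysed here. The exercised mice had been trained on a forced running wheel from the age of 5 weeks (4 weeks, 5 daily bouts each week, 60 min per bout, 5 m/min), and the comparison asks which transcripts differ after this early exercise. Each array reads a single dye, so a value is the brightness of a probe. Levels are given as log2 of that brightness less the 75th percentile of the array, and they compare mice for 1 gene but not 1 gene with another.

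NAD carries electrons in energy metabolism and is also used up as a substrate. In skeletal muscle most of it is rebuilt from nicotinamide, which Nampt converts to nicotinamide mononucleotide, and the Nmnat enzymes then convert that mononucleotide to NAD. The kinases Nmrk1 and Nmrk2 enter the same route from nicotinamide riboside, and Nmrk2 is the form typical of striated muscle. Sirtuins remove acyl groups from proteins and Parp1 builds ADP-ribose chains, both at the cost of NAD, and both release nicotinamide. Nnmt methylates nicotinamide, which takes it out of the salvage route.

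The stretches upstream of the transcription start are shown for the kinase pair, because Nmrk1 and Nmrk2 stood at opposite ends of the range in size of difference, and for Nampt and Nmnat3, which were both higher in exercised mice. Each holds the 250 bases before a start annotated by RefSeq on GRCm38.p6, read 5′ to 3′ along the gene. Nmrk2 lies on the minus strand at chr10:81202038-81202287, Nmrk1 on the plus strand at chr19:18631766-18632015, Nampt on the plus strand at chr12:32820085-32820334 and Nmnat3 on the plus strand at chr9:98296320-98296569. Capitals mark matches, on either strand, to any of the motifs searched, which are named after the sequences.
Nmrk2: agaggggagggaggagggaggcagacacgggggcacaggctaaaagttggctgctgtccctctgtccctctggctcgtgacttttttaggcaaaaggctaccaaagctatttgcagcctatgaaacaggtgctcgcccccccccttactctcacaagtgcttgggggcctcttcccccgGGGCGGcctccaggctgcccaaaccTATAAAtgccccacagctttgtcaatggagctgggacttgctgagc
Nmrk1: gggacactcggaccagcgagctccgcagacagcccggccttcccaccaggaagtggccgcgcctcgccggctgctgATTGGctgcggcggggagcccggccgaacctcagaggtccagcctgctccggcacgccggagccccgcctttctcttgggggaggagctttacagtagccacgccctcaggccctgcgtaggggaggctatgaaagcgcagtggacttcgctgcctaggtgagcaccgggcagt
Nampt: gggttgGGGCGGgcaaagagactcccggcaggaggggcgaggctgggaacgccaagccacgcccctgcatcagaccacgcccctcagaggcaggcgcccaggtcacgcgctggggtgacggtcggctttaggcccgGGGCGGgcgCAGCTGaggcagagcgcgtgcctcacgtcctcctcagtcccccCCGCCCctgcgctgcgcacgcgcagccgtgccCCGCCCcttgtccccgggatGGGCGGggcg
Nmnat3: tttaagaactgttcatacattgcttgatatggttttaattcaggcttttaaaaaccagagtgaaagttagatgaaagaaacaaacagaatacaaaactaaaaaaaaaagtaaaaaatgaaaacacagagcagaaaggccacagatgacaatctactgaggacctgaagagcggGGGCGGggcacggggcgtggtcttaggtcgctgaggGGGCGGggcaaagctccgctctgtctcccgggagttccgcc

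Windows were held for 9 of the 10 genes, 11 windows in all. The motifs searched were the clock E-box CACGTG, the myogenic E-box CAGCTG, the GC box GGGCGG, the CCAAT box CCAAT, the estrogen-related receptor element TCAAGGTCA, the NRF1 core GCATGCGC and the AP-1 site TGACTCA. The TATA box TATAAA was added after the Nmrk2 window was seen. Of the 11 windows, only the Nmrk2 window held TATAAA, which 12.4% of the 32851 windows of all genes hold. The Nmrk2 window had 5 CpG dinucleotides and 58.8% G and C, whereas the Nmrk1 window had 21 and 69.2%. Over all windows the median was 6 CpG dinucleotides and 52.4% G and C. A GC box was present in 9 of the 11 windows, against 32.7% of all windows, with 5 matches for Nampt, 2 for Nmnat3, 1 for Nmrk2 and 0 for Nmrk1. Every member window but that of Nmnat3 (45.6%) held more G and C than the median of all windows, up to 79.2% for Sirt1. The 2 Nmnat1 windows overlap and hold the same GC box. The part of G and C content in the GC box count was not tested. The clock E-box was present in the Sirt1 window, with 2 matches, and in the Parp1 window, with 1, against 6.02% of all windows. The myogenic E-box was found for Nampt alone of the member windows (13.0% of all windows), and a CCAAT box in 4 of them, that of Nmrk1 included (33.8% of all windows). No member window held the receptor element (0.387% of all windows), the NRF1 core (2.26%) or the AP-1 site (4.46%). These matches are letters in a window and were not tested as binding sites.

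Most of the 10 genes were higher in exercised than in sedentary muscle, with 1 difference far above the others. Nmrk2, a kinase of nicotinamide riboside, was 5.57-fold higher, while Nampt, Nmnat3 and Sirt3 were between 1.38-fold and 1.47-fold higher. Under the 75th percentile scaling 8 of the 10 were higher by mean and 2, Nnmt and Sirt1, were lower. Without scaling between arrays Nmrk1, Nmnat1, Sirt3, Sirt5 and Parp1 turned to lower, where the median of all genes and transcripts was -0.45. Nmrk1 was also lower in the deposited table of values. The median difference of the 10 genes was 0.31 on the log2 scale, beside 0.026 over all genes and transcripts tested. In whole muscle, fewer cells of a type and less RNA in each cell cannot be told apart.

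With limma and Benjamini-Hochberg adjustment over all genes and transcripts, 4 of the 10 passed an adjusted p under 0.05 as higher in exercise: Nmrk2, Nampt, Nmnat3 and Sirt3. Of everything tested, 11.5% passed in that direction. Sirt3 did not pass after quantile normalization (3 of the 10 passed, and 12.9% of everything tested in either direction). Nampt and Sirt3 did not in the deposited values (2 of the 10, and 17.5%). Nmnat3 did not with the mean of its probes, where Nmnat1 did (4 of the 10, and 16.8%). Without scaling Nmrk2 alone passed as higher, and Nnmt and Sirt1 passed as lower, where 47.6% of everything tested passed in either direction. With the 75th percentile scaling none of the 10 passed as lower, where 6.12% of everything tested did. The count of members lower at an unadjusted p under 0.05 was also 0, beside 3851 of the 25003 genes and transcripts. The exercise and sedentary arrays did not overlap, with exercise higher, for 7 of the 10, against 25.0% of everything tested. For 0 of the 10 they stood apart with exercise lower, against 18.2%. Only Nmrk2 also passed the additional limit of the study's methods, a log2 difference of at least 1, as 1.72% of everything tested did on the higher side. Since the genes were chosen with this comparison known, nothing is read from these counts.

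Nmrk2, the muscle form of nicotinamide riboside kinase, was at 5.67, 5.19 and 6.36 (log2 level) in exercise mice 1, 2 and 3. In sedentary mice 1, 2 and 3 it was at 3.60, 2.91 and 3.27. All 3 exercise values lay above all 3 sedentary values, and the lowest exercise value was 1.59 above the highest sedentary one. The means were 5.74 ± 0.59 and 3.26 ± 0.35 (SD, n = 3 each), a difference of 2.48 (SE 0.32, 95% interval 1.69 to 3.27). By size this was rank 13 among the rises of the 25003 genes and transcripts. Exercise mouse 3 was the highest and exercise mouse 2 the lowest of the exercise group, and sedentary mouse 1 was the highest of its group.

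Nmrk1, the kinase found in many tissues, was at -1.47, -1.61 and -1.53 in the exercise mice and at -1.67, -1.48 and -1.60 in the sedentary mice. The groups overlapped throughout. The difference was 0.04 (SE 0.09), with a 95% interval from -0.18 to 0.27, and it became -0.43 without scaling and -0.11 in the deposited values.

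**Figure D1:**
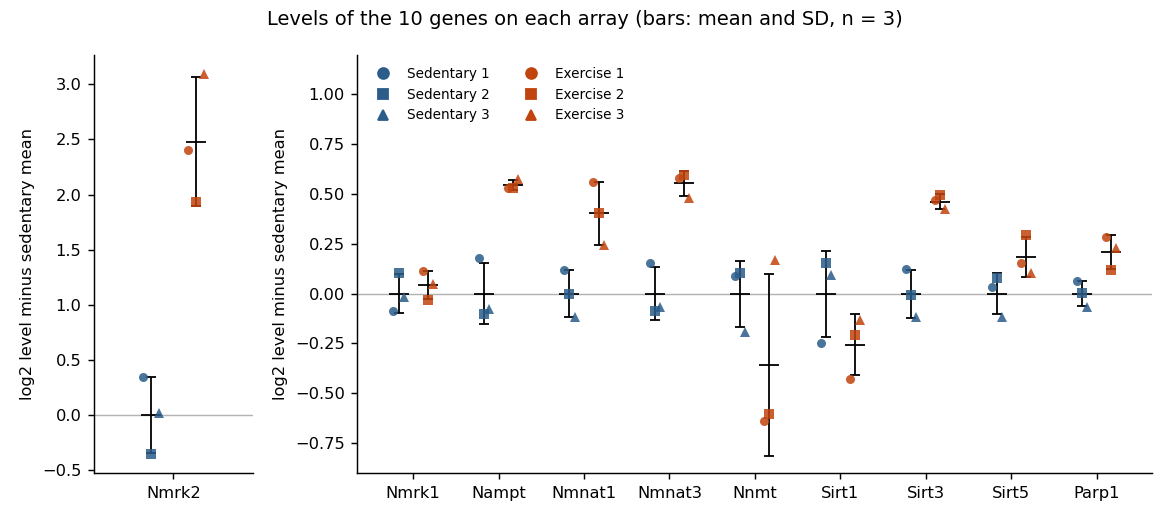
Log2 level of each gene on each array less its own mean in the sedentary group (vertical axis; Nmrk2 has an axis of its own), with 1 symbol per mouse and bars for the mean and SD of 3 mice. The Nmrk2 difference of 2.48 exceeds the others, Nampt, Nmnat3 and Sirt3 form tight exercise groups above the sedentary mice, and Nnmt is spread widely among the exercise mice. Without scaling between arrays Nmrk1, Nmnat1, Sirt3, Sirt5 and Parp1 are lower in exercise, where the median of all genes and transcripts is -0.45.

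Nampt, the rate-limiting enzyme of nicotinamide salvage, was at 3.36, 3.37 and 3.41 in exercise mice 1 to 3 and at 3.01, 2.73 and 2.76 in sedentary mice 1 to 3. The exercise mice lay within a narrow band above every sedentary mouse, and sedentary mouse 1 came nearest to them. The difference was 0.55 (SE 0.10, 95% interval 0.30 to 0.80), 1.46-fold. Nampt is read by 1 probe on this array.

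Nmnat3, the mitochondrial member of the family that completes NAD, was at 3.28, 3.30 and 3.18 in the exercise mice. The sedentary mice were at 2.86, 2.61 and 2.64, all below them, and the difference was 0.55 (SE 0.10). A dimmer probe did not follow. It was at -2.71, -2.54 and -2.84 in the exercise mice and at -2.73, -2.35 and -2.33 in the sedentary mice, with overlap and a difference of -0.23. The higher level of Nmnat3 therefore holds for the brighter probe and not for both.

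Nmnat1, the nuclear member of that family, was at 2.75, 2.60 and 2.43 in the exercise mice and at 2.31, 2.19 and 2.08 in the sedentary mice. The groups did not overlap, although exercise mouse 3 stood only 0.12 above sedentary mouse 1, and the difference was 0.40 (SE 0.12). The dimmer of its probes was at 2.52, 2.52 and 2.46 against 2.21, 2.01 and 1.95, again without overlap, with a difference of 0.44. For Nmnat1 both probes were thus higher in all exercise mice under this scaling, and the brighter one was at -0.07 without scaling.

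Nnmt, the methyltransferase that clears nicotinamide, was at 2.53, 2.57 and 3.34 in exercise mice 1, 2 and 3 and at 3.26, 3.27 and 2.98 in the sedentary mice. Exercise mice 1 and 2 were below every sedentary mouse, while exercise mouse 3 was the highest of all 6. The difference was -0.36 (SE 0.24, 95% interval -0.93 to 0.22), a value smaller than the SD of 0.46 within the exercise group. It was -0.62 without exercise mouse 3, -0.22 without exercise mouse 1 and -0.235 without exercise mouse 2. A dimmer probe also placed exercise mouse 3 above the other exercise mice, at -0.64, -0.65 and -0.01, with the sedentary mice at -0.18, -0.27 and -0.17. A further Nnmt probe did not rise clearly above background on any of the arrays.

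Within the exercise group, each of the 9 markers of fat cells was also highest in mouse 3. Their summed linear level was 241.5, 332.5 and 635.8 in exercise mice 1, 2 and 3 and 433.8 to 557.7 in the sedentary mice, in multiples of the 75th percentile. All 9 were above background on 3 or more arrays, and 8 were lower in exercise by mean. None of those 8 passed an adjusted p under 0.05, where 6.12% of everything tested passed as lower. Lep passed as higher, as 11.5% of everything tested did. Adipoq, the fat cell hormone adiponectin, was at 2.71, 3.08 and 4.51 in the exercise mice and at 4.24, 4.65 and 4.28 in the sedentary mice. The part of fat in the Nnmt values was not tested.

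**Figure D2:**
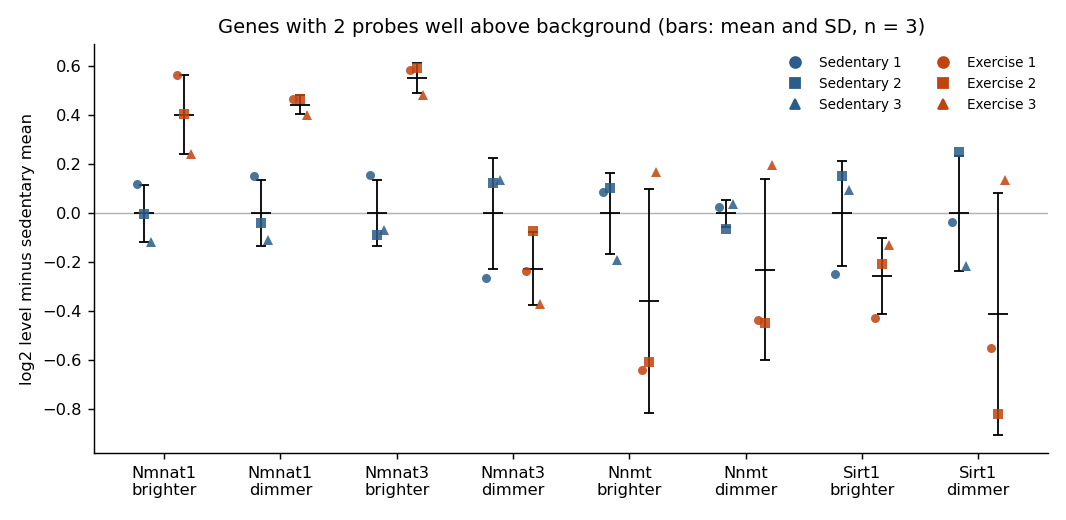
Log2 level of each probe on each array less its own sedentary mean (vertical axis), for the 4 genes with 2 probes that passed the filter on dim probes, brighter probe first, with bars for the mean and SD of 3 mice. The probes of Nmnat1 run together (0.40 and 0.44), those of Nmnat3 run apart (0.55 and -0.23), and both probes of Nnmt place exercise mouse 3 far above the other exercise mice. Without scaling between arrays the brighter Nmnat1 probe is at -0.07, where the median of all genes and transcripts is -0.45.

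Of the NAD consumers among the 10 genes described, Sirt3 had the most separated groups. Sirt3, the main deacetylase of mitochondria, was at 3.88, 3.90 and 3.83 in exercise mice 1 to 3. The sedentary mice were at 3.53, 3.40 and 3.29, all lower, and the difference was 0.46 (SE 0.09, 95% interval 0.24 to 0.69). The lowest exercise value was 0.30 above the highest sedentary value. Without scaling the Sirt3 difference was -0.01.

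Sirt5, which removes succinyl and malonyl groups in mitochondria, was at 2.31, 2.45 and 2.26 in the exercise mice and at 2.19, 2.24 and 2.04 in the sedentary mice. The groups did not overlap, but the gap between the nearest mice was only 0.02 and the difference 0.18 (SE 0.10), and without scaling the difference was -0.29. Parp1, the nuclear enzyme that responds to DNA breaks, was at 1.01, 0.84 and 0.95 against 0.78, 0.73 and 0.66. Its groups also stood apart, by 0.06, with a difference of 0.21 (SE 0.09) that was -0.26 without scaling.

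Sirt1, the nuclear sirtuin, was at 0.93, 1.15 and 1.23 in the exercise mice and at 1.11, 1.51 and 1.45 in the sedentary mice. Sedentary mouse 1 lay inside the range of the exercise mice, and the other sedentary mice lay above it. The difference was -0.26 (SE 0.14, 95% interval -0.60 to 0.09). A dimmer probe was at -4.09, -4.36 and -3.41 in the exercise mice and at -3.58, -3.29 and -3.76 in the sedentary mice, with overlap and a difference of -0.41. Sirt1 was thus lower and Sirt3 higher by mean under this scaling. Without scaling they were at -0.73 and -0.01, beside a median of -0.45 over all genes and transcripts.

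The arrays of a slide lie in strips, and the 3 exercise arrays shared a strip with sedentary mouse 1, while sedentary mice 2 and 3 lay in the other. Within the shared strip, the exercise mean exceeded sedentary mouse 1 by 2.14 for Nmrk2, 0.40 for Nmnat3, 0.37 for Nampt, 0.34 for Sirt3 and 0.28 for Nmnat1. The smaller values there were 0.15 for both Parp1 and Sirt5, 0.13 for Nmrk1, -0.44 for Nnmt and -0.01 for Sirt1. Sirt1 thus hardly differed from this 1 sedentary mouse. The other strip held no exercise array, so the strip and sedentary mouse 1 cannot be told apart. For the same reason a strip block gives these same differences and is not a separate check. With the strip as a block in limma, 0 of the 10 genes passed an adjusted p under 0.05, with 3 calls among everything tested. At an unadjusted p under 0.05, 4 were higher, where 4827 of the 25003 genes and transcripts passed in either direction.

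The 75th percentile of the signal was 250.5 to 256.9 on the exercise arrays and 310.3 to 383.6 on the sedentary arrays, so scaling moved all genes together. Without scaling the median of all genes and transcripts was -0.45. Relative to that median the genes were at 2.45 for Nmrk2, 0.53 for Nmnat3, 0.52 for Nampt, 0.44 for Sirt3, 0.38 for Nmnat1, 0.19 for Parp1, 0.16 for Sirt5, 0.02 for Nmrk1, -0.28 for Sirt1 and -0.38 for Nnmt. The order of the 10 genes by this measure was led by Nmrk2 and closed by Nnmt. Across all scalings and other alternatives, the Nmrk2 difference lay between 2.01 and 2.75, and Nnmt and Sirt1 were lower by mean in each.

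**Figure D3:**
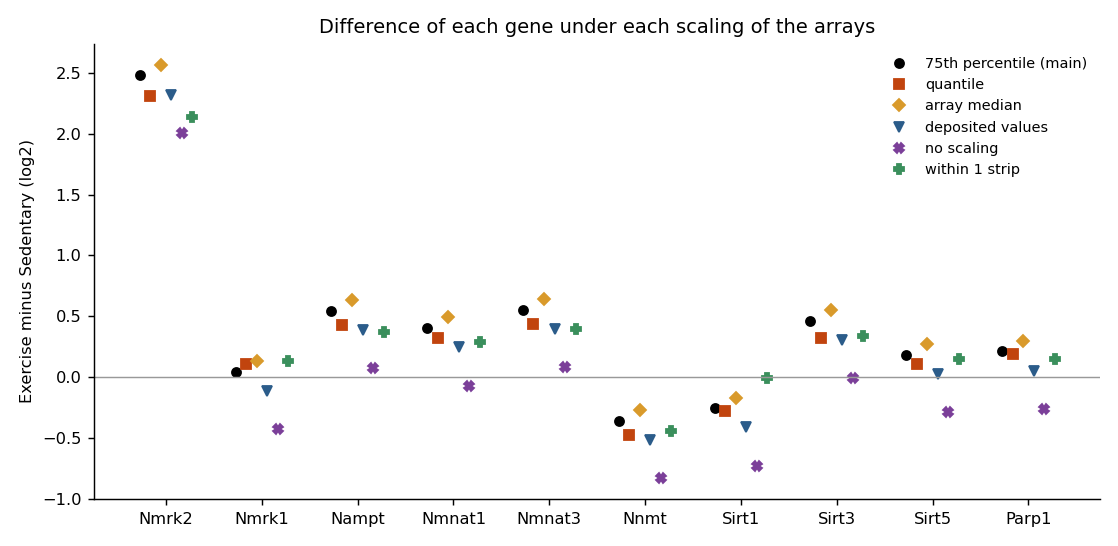
Exercise minus sedentary difference of each gene on the log2 scale (vertical axis) with each scaling of the arrays, and within the strip of the slide that holds both groups, 1 symbol per setting. Nmrk2 stays between 2.01 and 2.57 with every scaling shown, and without scaling the other genes move down, with Nmrk1, Nmnat1, Sirt3, Sirt5 and Parp1 below 0. The median of all genes and transcripts is then -0.45.

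When a mouse was left out, the calls held only where that mouse was sedentary mouse 1. Leaving out exercise mouse 1, 2 or 3, or sedentary mouse 2 or 3, left 0 of the 10 genes with an adjusted p under 0.05 in limma. At an unadjusted p under 0.05, 5 or 6 stayed higher, where 6685 to 8146 of the 25003 genes and transcripts passed in either direction. Everything tested fell with the 10 genes at the adjusted p, to 0 or 1 calls. Without sedentary mouse 1, Nmrk2, Nampt, Nmnat3 and Sirt3 passed, and 5536 calls were made among everything tested. No direction changed when a mouse was left out, except that Nmrk1 went to -0.00 without sedentary mouse 1.

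Of the other genes of NAD metabolism, 79 were listed by role, 75 passed the filter, and limma called 12 higher and 6 lower in exercised muscle at an adjusted p under 0.05. That is 16.0% and 8.0%, beside 11.5% and 6.12% of everything tested. The lists were chosen with earlier results of these data known, so these counts, and those of each list below, are given as descriptions. The higher calls lay in the NADH shuttle, sirtuin substrate and ADP-ribose lists, and the lower ones in synthesis, breakdown, sirtuin, ADP-ribose and methyl donor lists. Kynu, Acmsd, Mat1a and Aadat were too dim to be tested. With no scaling 2 were called higher and 28 lower, where 47.6% of everything tested was called in either direction. With the deposited values the counts were 4 and 12 (17.5% of everything tested), and with quantile normalization 5 and 7 (12.9%). With subtraction of the array median they were 12 and 0 (14.2%). With the strip as a block, or with any mouse but sedentary mouse 1 left out, limma called 0 of them. For the block 10 were higher and 7 lower at an unadjusted p under 0.05, where 4827 of the 25003 genes and transcripts passed.

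The shuttles carry NADH equivalents across the mitochondrial membrane, and lactate dehydrogenase regenerates NAD in the cytosol. Of 11 such genes 6 rose, none fell and 5 did not pass, with a median difference of 0.44. Of everything tested, 11.5% was called higher and 6.12% lower. Gpd1, the cytosolic glycerol-3-phosphate dehydrogenase, rose from 5.39 ± 0.67 to 6.72 ± 0.24 (SD, n = 3 each), a difference of 1.33 (SE 0.34, limma adjusted p = 0.046). Gpd2, its mitochondrial partner, rose from 2.11 to 2.94 by its brighter probe (difference 0.84, SE 0.16, limma adjusted p = 0.027). A dimmer Gpd2 probe differed by -0.08, and the mean of both by 0.38 (limma adjusted p = 0.17). Mdh2, mitochondrial malate dehydrogenase and the brightest of the list, rose by 0.53 (SE 0.10, limma adjusted p = 0.026), but its difference was -0.00017 after quantile normalization, and it did not pass in the deposited values (0.37, limma adjusted p = 0.061). Gpd1 did not pass after quantile normalization (1.08, limma adjusted p = 0.077) or in the deposited values (1.17, limma adjusted p = 0.059). With the strip as a block Gpd1 differed by 0.64 and Gpd2 by 0.50.

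Sirt3 acts on mitochondrial enzymes, and of 10 genes for sirtuin substrates 3 rose, none fell and 7 did not pass (median 0.30). Over everything tested the shares called were 11.5% higher and 6.12% lower. Sod2, the mitochondrial superoxide dismutase, rose by 0.79 (SE 0.18, limma adjusted p = 0.035) and Ppif, cyclophilin D, by 0.64 (SE 0.12, limma adjusted p = 0.025). Sod2 did not pass after quantile normalization (0.66, limma adjusted p = 0.053) or in the deposited values (0.63, limma adjusted p = 0.067), and with the strip as a block it differed by 0.46. Acadvl, an enzyme of fatty acid oxidation and the brightest of the list, differed by 0.29 (SE 0.11, limma adjusted p = 0.11), and by -0.19 without scaling and -0.05 after quantile normalization.

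Of the 18 other PARPs and ADP-ribose hydrolases, 3 rose, 1 fell and 14 did not pass, with a median of -0.09. That is 16.7% and 5.56%, near the 11.5% and 6.12% of everything tested, so nothing is read from these counts. Macrod1, a mitochondrial ADP-ribose hydrolase, rose from 5.66 to 6.42 (difference 0.76, SE 0.13, limma adjusted p = 0.024), and differed by 0.50 with the strip as a block. Macrod2 rose by 0.81 by its brightest probe (SE 0.15, limma adjusted p = 0.026), and its next brightest probe was higher by 0.66 in mean. The 2 dimmest Macrod2 probes were lower by 0.83 and 0.87 in mean, and its direction is therefore probe dependent. Of the 4 other sirtuins, Sirt7, the nucleolar sirtuin, fell by 0.48 (SE 0.10, limma adjusted p = 0.032) by its brightest probe and 3 did not pass. Of the dimmer Sirt7 probes above background on all arrays, 1 was higher in exercise by 0.25 and another differed by -0.34. The mean of the Sirt7 probes differed by -0.19 (limma adjusted p = 0.19), so its direction depends on the probe. Sirt2, mainly cytosolic, was at 3.70 against 3.49 (difference 0.20, limma adjusted p = 0.11), and at -0.27 without scaling.

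Of 12 tested genes of the other synthesis routes, Nadsyn1, which makes NAD from its acid form, fell by 0.43 (SE 0.08, limma adjusted p = 0.027), none rose and 11 did not pass. The share called lower was 8.3%, near the 6.12% of everything tested (11.5% was called higher). Pnp, a nucleoside phosphorylase that also acts on nicotinamide riboside, differed by -0.42 (limma adjusted p = 0.052), and its near-identical neighbour Pnp2 could share its signal. Of 7 genes for NAD breakdown and nicotinamide oxidation 2 fell and none rose: Aox1, which oxidizes nicotinamide products, by 0.50 (SE 0.11, limma adjusted p = 0.034), and Nudt12, which hydrolyses NADH, by 0.40 (SE 0.08, limma adjusted p = 0.030). None of the 4 NAD kinase, transhydrogenase and carrier genes passed, and the mitochondrial NAD carrier Slc25a51 differed by 0.14 (SE 0.08), a sign that turned to -0.33 without scaling, -0.04 after quantile normalization and -0.02 in the deposited values.

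Nnmt draws on S-adenosylmethionine, and of 7 tested genes of the methyl donor cycle Ahcyl2 fell by 0.41 (SE 0.09, limma adjusted p = 0.034), none rose and 6 did not pass. The share called lower was 14.3%, beside 6.12% of everything tested (11.5% was called higher). Mat2a, which makes that methyl donor, differed by 0.44 (SE 0.18, limma adjusted p = 0.13), by 0.24 without exercise mouse 3 and by -0.04 without scaling. Neither of 2 kynurenine aminotransferases tested passed, and Kyat1 differed by 0.25 (SE 0.11), and by -0.22 without scaling.

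**Figure D4:**
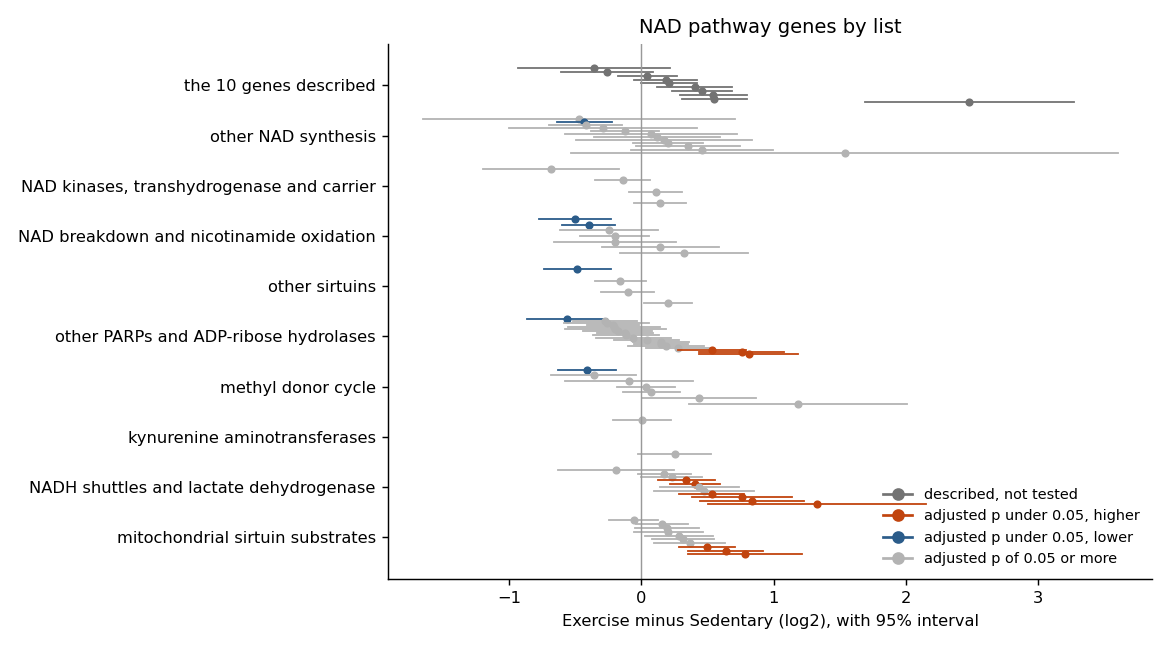
Exercise minus sedentary difference of each gene with its 95% interval (horizontal axis, log2), by list, with the 10 genes described in dark grey at the top and calls at a limma adjusted p under 0.05 in red (higher) and blue (lower). Of the NADH shuttle genes 6 of 11 are called higher, and calls in the NAD breakdown list are both lower. Of everything tested 11.5% is called higher and 6.12% lower. Without scaling between arrays 2 of the 75 pathway genes are called higher and 28 lower, where 47.6% of everything tested is called in either direction. The lists were chosen with earlier results of these data known, so the calls are a description.

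The genes whose levels followed Nmrk2 and Nnmt most closely were sought among 14729 named genes above background on all 6 arrays, with Pearson's r over 6 arrays. Nmrk2 was followed by Gpatch4 (r = 0.9991), Rabgef1 (r = 0.9986), Zkscan14 (r = 0.997), Rnf180 (r = 0.997) and Eif3j1 (r = 0.996). Their differences were far smaller than that of Nmrk2, between 0.38 for Rnf180 and 0.74 for Rabgef1. Nnmt was followed by Pde3b (r = 0.9965), Prkar2b (r = 0.9955), Itpka (r = 0.992), Slc16a7 (r = 0.991) and Slc36a2 (r = 0.989). In Pde3b, a phosphodiesterase, exercise mouse 3 was at 1.07 and exercise mice 1 and 2 at -0.18 and -0.06, with the sedentary mice at 1.07, 1.02 and 0.55, the same pattern as Nnmt. These arrays share a slide and the split into 2 groups, and r over so few arrays is a description.

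The labelled tissue was checked against its markers. All 10 muscle markers were above background on 3 or more arrays, and their summed level was 2922 to 3431 in exercise and 1406 to 1958 in sedentary mice. By mean 8 were higher and 2 lower in exercise, and 6 were called higher, where 11.5% of everything tested was called higher and 6.12% lower. For 1 of the lower ones the groups did not overlap. Genes of fast and denervated fibres moved with the groups, as did Nmrk2 and Sirt3. The 9 fast fibre genes were all called higher, with sums of 6758 to 7447 against 3214 to 4769, and 8 of the 10 denervated fibre genes were called lower, with sums of 28.1 to 30.1 against 45.6 to 100.4. The 7 slow fibre genes were all lower by mean, 2 of them called, with sums of 87.0 to 165.8 against 188.1 to 205.4. The macrophage, fibroblast and endothelial lists held 0 calls out of 10, 8 and 6 genes, and none of their genes reached an unadjusted p under 0.05 in limma. Of 8 tested neutrophil markers 5 were lower and 3 higher by mean, and 2 were called lower. Their sums were 2.63 to 3.76 against 4.04 to 5.71, and Ngp was too dim to be tested. The part of fibre type and denervation in the values of the 10 genes was not tested.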

How the data were processed

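The deposited scanner files hold spot intensities of 6 single-colour Agilent SurePrint G3 mouse arrays, for which the authors' Feature Extraction 12.1.0.3 had subtracted background and spatial trends. A further table deposited by the authors holds values of which each column equals an array's processed intensity times 1 factor (1.33 to 1.88).

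Control spots and outlier spots were left out, replicate spots were averaged per probe, and log2 levels were set relative to the 75th percentile of the array. The filter on dim probes required signal well above background on 3 or more of the 6 arrays and kept 32726 of 56605 probes. Probes were named through transcript accessions, symbols and synonyms of a RefSeq table of GRCm38.p6 (34589 named by 1 gene, 22016 not matched, which kept their own identifiers), and the brightest probe stands for a gene. No spot was saturated, 54.6 to 59.9% of probes were well above background, and the number of arrays limits the precision. Exercise and sedentary mice were set against each other in R 4.3.3 by limma 3.58.1 (lmFit and eBayes, two-sided, no covariates, Benjamini-Hochberg over all features). The test was checked on simulated data. Alternatives were other scalings, normexp, other filters and probe choices, other eBayes settings, each mouse left out, and a block for the replicate number or for the slide strip. All arrays were on 1 slide and 1 scan.

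The members and the lists were chosen with earlier results of these data known. All members are named, with every probe kept; of each pathway list, the 2 largest called differences and the brightest gene; and the 5 genes most like the members with the largest rise and fall. Lep, Adipoq and Pnp2, the genes too dim to be tested and the dimmer probes of Macrod2, Sirt7 and Gpd2 were named after their values were seen. Details of the transgene are not reported here.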

Additional observations from a re-analysis of the deposited data

How the results depend on the processing

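Beside the 4 members called higher, 0 called lower, 12 pathway genes called higher, 6 called lower and 4398 calls in all, the counts moved as follows, and the cause was not tested. With no scaling they were 1, 2, 2, 28 and 11898, with the deposited values 2 and 0 members, 4 and 12 pathway genes. Quantile normalization called 5 pathway genes higher, the array median called 0 lower, normexp (offset 50) called 10 lower and 8178 in all, and no filter on dim probes, which tests 44904 features, called 11660 in all. With the replicate number as a block, limma called 0 members, 0 pathway genes and 0 in all (8591 at an unadjusted p under 0.05, 5 members higher and 1 lower), and with the strip as a block 0, 0 and 3. Within their groups, same-numbered mice varied together only weakly (r = 0.015, 0.085 and 0.036), beside -0.107 to 0.075 for mice of different numbers. With 3 mice in each group these values cannot settle whether the numbers pair the mice. Leaving out 1 mouse at a time gave 0 to 4 members called higher and 0 called lower, 0 to 15 pathway genes called higher and 0 to 6 lower, and 0 to 5536 in all (6685 to 9603 at an unadjusted p under 0.05).

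The median of all genes and transcripts was -0.45 without scaling. Directions turned there for Nmrk1 (-0.43), Nmnat1 (-0.070), Sirt3 (-0.011), Sirt5 (-0.29), Parp1 (-0.26), Slc25a51 (-0.33), Sirt2 (-0.27), Mat2a (-0.035), Kyat1 (-0.22) and Acadvl (-0.19). They turned after quantile normalization for Slc25a51 (-0.044), Mdh2 (-0.00017) and Acadvl (-0.050), and in the deposited values for Nmrk1 (-0.11) and Slc25a51 (-0.016). With 1 mouse left out Nmrk1 lay between -1.7e-05 (without sedentary mouse 1) and 0.096, and Macrod2 at -0.056 with the mean of its probes and -0.87 with the probe of largest SD.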
